A study of Rattus norvegicus and Bos taurus with 6 samples.

Results

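Mesenteric perivascular adipose tissue (mesPVAT), the white fat that surrounds the small arteries of the rat mesentery, was measured by single-nucleus RNA-seq on both platforms of the study, and the deposited libraries were compared. All nuclei of the 10x Genomics library were taken against all nuclei of the Parse library labelled mesPVAT, with genes joined by Ensembl id. The pair held 8915 of the 19424 nuclei in the series, 5887 on 10x and 3028 on Parse. Both libraries came from snap-frozen fat of male Dahl SS rats (SS/HsdMcwiCrl), labelled as normal, supplied by Charles River and housed at 22 °C and 50% humidity. No group was treated. The age of the rats and the number pooled are not given in the sources used here. The study worked on isolating enough intact nuclei from white fat, and it names an older procedure for 10x and a newer one for Parse.

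The 2 libraries differed in more than the platform. The 10x nuclei were isolated by an older protocol for fatty tissue, stained and sorted with DAPI and loaded directly after the sort (10x 3′ v3, batch 1). The Parse nuclei were released by pulverization in liquid nitrogen and Dounce homogenization, fixed, frozen and later barcoded in pools (Parse Evercode WT v3, batch 2). The protocol field in GEO gives both samples the newer isolation, whereas the study's supplementary methods describe the sort for 10x. The reads were also counted with different programs against different gene annotations. Platform, isolation, fixation, annotation and batch therefore cannot be told apart, and each condition had 1 library. No test was possible and no p-value is given. All intervals are 95% intervals that cover counting error only. Those of medians and shares cover the sampling of nuclei within 1 library, and no interval covers differences between libraries. The Parse library labelled RP fat (retroperitoneal fat, 2805 nuclei) is given beside the main results because it shares the Parse protocol and batch, and the pair is also read against it. The largest nuclei and the genes per nucleus of the files labelled mesPVAT and RP fat stand in the reverse order to the study's own description of these depots. The file labelled mesPVAT had a largest nucleus of 41374 UMIs and a median of 304 genes, against 5611 UMIs and 197 genes in the file labelled RP fat. The study gives the larger value of each to RP fat. Whether these 2 labels were exchanged was not tested, both libraries are called by their deposited labels, and every value of either depends on them.

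White fat holds large adipocytes that store triglyceride, and between them lie adipose stem and progenitor cells (ASPCs), capillary endothelium, mural cells (pericytes and smooth muscle) and macrophages. In the mesentery the fat is covered by mesothelium, a flat epithelium that carries Msln and Wt1. Nuclei hold mainly unspliced and recently made RNA, so long genes with many introns and genes that are switched on within minutes weigh more than they do in whole cells. Immediate early genes such as Fos and Egr1 belong to the latter and are known to respond to tissue handling and warm dissociation.

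The 10x library held 1237543 UMIs and the Parse library 1656726. A median nucleus had 161 UMIs (interval 157 to 163) on 10x and 346 (334 to 359) on Parse, with 137 genes (134 to 139) and 304 genes (293 to 313). The shallowest deposited nucleus had 84 UMIs on 10x and 152 on Parse, and 752 of the 10x nuclei lay under 100 UMIs against 0 of the Parse nuclei. When every nucleus was thinned to 150 UMIs, the median was 134 genes on 10x (134 to 135) and 139 on Parse (139 to 140). These genes were counted over unlike sets of ids, 25629 on 10x and 38697 on Parse. This thinning left out 2649 of the 10x nuclei and 0 of the Parse nuclei. In the Parse library 3 nuclei exceeded 15000 UMIs and together held 5.70% of its UMIs, the largest with 41374. Barcode names shared between any 2 of the rat libraries numbered 0. The platforms name barcodes in different ways, so between 10x and Parse this was fixed in advance. Whether Parse samples could share a barcode name at all was not tested, so nothing is concluded from the 0 between them. Mitochondrially encoded genes made up 0.170% of all UMIs on 10x and 0.0504% on Parse.

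**Figure D1:**
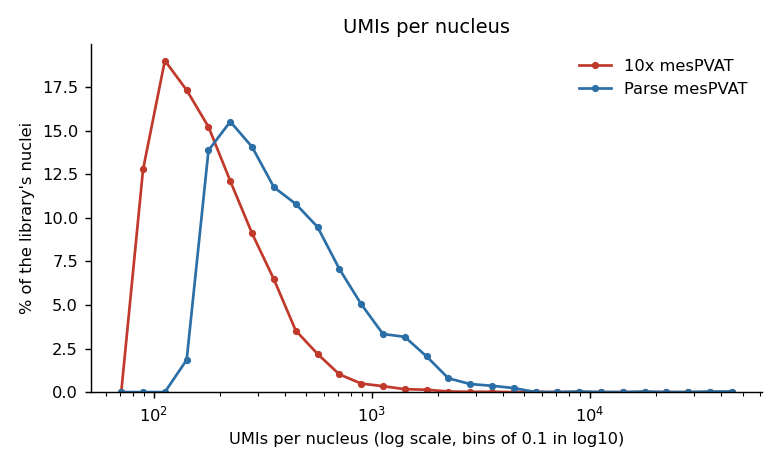
UMIs per nucleus (horizontal axis, log scale) against the percentage of each library's nuclei (vertical axis) in bins of 0.1 on the log10 scale, for the 10x library (red, 5887 nuclei) and the Parse library labelled mesPVAT (blue, 3028 nuclei). The 10x curve lies to the left, with a median of 161 against 346 UMIs, and the Parse curve has the longer tail.

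The 10x data list 25629 gene ids and the Parse data list 38697 ids, of which 19834 are shared. The shared ids carried 1097345 UMIs on 10x and 1276283 on Parse. Levels below are CPM, the UMIs of a gene scaled to the same total of shared UMIs in each library, and 1 UMI is worth 0.911 CPM on 10x and 0.784 CPM on Parse. A total of 8753 genes had at least 50 UMIs over the pair and were compared. Of these, 1923 (22%) were at least 2-fold higher and 2480 (28.3%) at least 2-fold lower on 10x, 50.3% in all, and at 4-fold the counts were 739 (8.44%) and 1449 (16.6%). The interval lay wholly beyond 2-fold for 1196 of the higher and 1745 of the lower genes. Counts of list members below are to be read beside the 22% and 28.3% of all genes. The median log2 ratio of the 8753 genes was -0.08, with quartiles of -1.20 and 0.85. Against the RP fat library, 28.9% of 7420 genes were at least 2-fold higher and 24.8% at least 2-fold lower on 10x. Between the Parse libraries labelled mesPVAT and RP fat only 11.6% of 8172 genes were 2-fold apart in either direction. More genes were thus 2-fold apart between 10x and either white Parse library than between these Parse libraries, at unequal depths.

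Over all 19834 shared ids, log2(CPM + 1) on 10x had a Spearman correlation of 0.75 and a Pearson correlation of 0.74 with Parse mesPVAT, and 0.65 and 0.64 with RP fat. The values were 0.86 and 0.86 with taPVAT (thoracic aortic PVAT) and 0.85 and 0.85 with subscapular brown fat (BAT), and 0.94 and 0.93 between the Parse libraries labelled mesPVAT and RP fat. These are descriptions across genes, which are not independent. The points share the 10x library, and the taPVAT and BAT libraries had 4146200 and 5138259 UMIs on these ids, against 1276283 in Parse mesPVAT and 605332 in RP fat. The part of depth in these values was not tested.

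The genes with the most UMIs also differed. Among the 10 highest shared genes of each library, 4 were common to both (Snrnp70, Ebf1, Dst and Utrn). Snrnp70, a component of the spliceosome, was the highest on 10x at 5666 CPM and was at 2084 CPM on Parse. Anxa1, which encodes the glucocorticoid-regulated protein annexin A1, had 4210 UMIs on 10x and 146 on Parse (33.5 times). Txnip, the thioredoxin-interacting protein, was 6.90 times higher on 10x. On Parse the highest included the large cytoskeletal genes Dst (3039 CPM on 10x and 5879 on Parse), Syne2 (1988 and 4711 CPM), Sptbn1 (1596 and 3629 CPM) and Macf1 (1306 and 2196 CPM), and the splicing factor gene Srrm2 (974 and 2977 CPM).

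The widest difference of any gene list was in the immediate early genes. The 11 joined members together reached 10566 CPM (10375 to 10760) on 10x and 265 CPM (237 to 295) on Parse, a ratio of 39.9 (35.8 to 44.6). Their level was 636 CPM in RP fat, 609 CPM in taPVAT and 652 CPM in BAT, so the Parse libraries of every rat depot lay far below 10x. Of the 11 members, 10 were at least 2-fold higher on 10x and 0 lower, with a median log2 ratio of 4.09. Zfp36, which encodes tristetraprolin, a protein that promotes decay of inflammatory mRNAs, had 3428 UMIs on 10x and 12 on Parse (3124 and 9.40 CPM), 332 times higher (190 to 644). Egr1, a zinc finger transcription factor, had 2422 and 42 UMIs, 67.1 times higher (49.5 to 93.3). The AP-1 subunits followed, with Jund at 1652 and 31 UMIs (62.0 times, 43.5 to 91.5) and Fosb at 1425 and 10 UMIs (166 times, 89.9 to 346). Jun and Fos differed less, with 757 against 107 UMIs and 366 against 26 UMIs, 8.23 and 16.4 times higher. Atf3, a stress-induced factor, was 42.1 times higher, and Dusp1 (337 and 23 UMIs), Nr4a1 (360 and 28) and Btg2 (168 and 14) were likewise more than 4-fold higher. Junb alone did not differ by 2-fold, at 29 UMIs on 10x and 27 on Parse (1.25 times, 0.714 to 2.19). Ier2, whose id differs between the tables, had 789 UMIs on 10x and 28 on Parse when matched by symbol.

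The promoters of these genes were searched for the letters of 2 well-known inducible elements, and an example of each is shown because the genes were high together. Promoter sequences were taken from RefSeq (GRCr8), which gave an entry for 8 of the 11 genes, as the 250 bases before the start site, with the matching letters in capitals. The CArG box, the site of serum response factor, was found in 2 of the 8 (Zfp36 and Egr1) and in 501 of all 33469 promoters of that length. The cAMP response element TGACGTCA, a palindrome, was found in 3 of the 8 (Jund, Dusp1 and Btg2) and in 531 of all promoters (1.59%). In Fosb, Nr4a1 and Junb neither was found in this window. Both strands were searched. The CArG match of Zfp36 also holds the letters ATAAAA, which resemble a TATA box. These are letter matches and not measured sites. The Zfp36 window is chr1:92799109-92799358 and the Jund window chr16:18769772-18770021, both on the minus strand and read 5′ to 3′.
Zfp36: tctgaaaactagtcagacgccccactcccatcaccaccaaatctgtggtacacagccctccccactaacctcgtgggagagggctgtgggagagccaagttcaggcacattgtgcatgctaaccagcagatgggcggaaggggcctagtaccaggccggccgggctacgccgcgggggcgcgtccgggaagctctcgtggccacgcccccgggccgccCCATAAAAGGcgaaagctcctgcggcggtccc
Jund: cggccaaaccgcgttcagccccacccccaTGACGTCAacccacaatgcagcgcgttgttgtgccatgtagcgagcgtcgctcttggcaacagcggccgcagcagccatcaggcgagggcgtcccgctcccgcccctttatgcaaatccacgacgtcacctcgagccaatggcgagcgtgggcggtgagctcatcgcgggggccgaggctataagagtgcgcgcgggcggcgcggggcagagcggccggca

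Other inducible genes stood among the 15 named genes that were furthest above Parse. The chemokines Cxcl1 and Ccl2, which draw neutrophils and monocytes, had 491 and 155 UMIs on 10x against 2 and 1 on Parse. These were 286 times (78.6 to 2364) and 180 times (31.9 to 7166) higher, and the wide intervals come from the 2 and 1 UMIs on Parse. Hes1, a Notch target, had 948 UMIs on 10x and 9 on Parse, 123 times higher (64.3 to 269). Ackr3, an atypical chemokine receptor, had 1845 and 24 UMIs, and Ccn1, a matrix protein induced by stretch and growth factors, had 1447 and 25 UMIs. They were 89.4 and 67.3 times higher. The list also held Rps21, Rps14, Arf4, Arf5, Dkc1 and Ankhd1, and Ankhd1 is named Eif4ebp3 in the 10x table, so what was counted there is uncertain. Heat shock genes, which respond to misfolded protein, reached 1263 CPM on 10x and 434 CPM on Parse (2.91 times, 2.63 to 3.22), with 4 of 6 members at least 2-fold higher and 0 lower. Hsp90aa1 was 5.22 times and Hspb1 8.84 times higher, while Hspa8 was at 77.5 and 61.1 CPM. Glucocorticoid response genes reached 1456 CPM on 10x and 813 CPM on Parse, with 5 of 8 members at least 2-fold higher and Hsd11b1, which regenerates active glucocorticoid, at least 2-fold lower (6 against 64 UMIs).

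Some RNA classes made from short genes were also higher on 10x. Replication histone genes were not higher in sum, at 93.0 CPM on 10x and 121 CPM on Parse. Cytosolic ribosomal protein genes summed to 6619 CPM on 10x and 1442 CPM on Parse, 4.59 times higher (4.36 to 4.83). Of the 48 members compared, 38 were at least 2-fold higher and 0 at least 2-fold lower. Rplp2 had 661 and 57 UMIs and Rplp0 492 and 21. Their ratios were 13.5 and 27.2. Ribosomal protein genes have many near-identical pseudogenes, so the split of their reads may differ between counting programs, which was not tested. Nuclear genes of oxidative phosphorylation (OXPHOS) were 2.49 times higher in sum, with 21 of 38 members at least 2-fold higher and 3 lower, led by Atp5me (169 against 10 UMIs) and Cox4i1 (298 against 31). Mitochondrially encoded genes summed to 1923 CPM on 10x, 654 CPM on Parse and 1171 CPM in RP fat. They did not go one way, since Mt-co3 had 970 UMIs on 10x and 54 on Parse (20.9 times, 15.9 to 28.0) whereas Mt-nd5 had 31 and 121 UMIs (3.36 times lower, 2.25 to 5.15). Of 12 members, 6 were at least 2-fold higher and 1 at least 2-fold lower (50% and 8.33%, beside 22% and 28.3% of all genes).

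**Figure D2:**
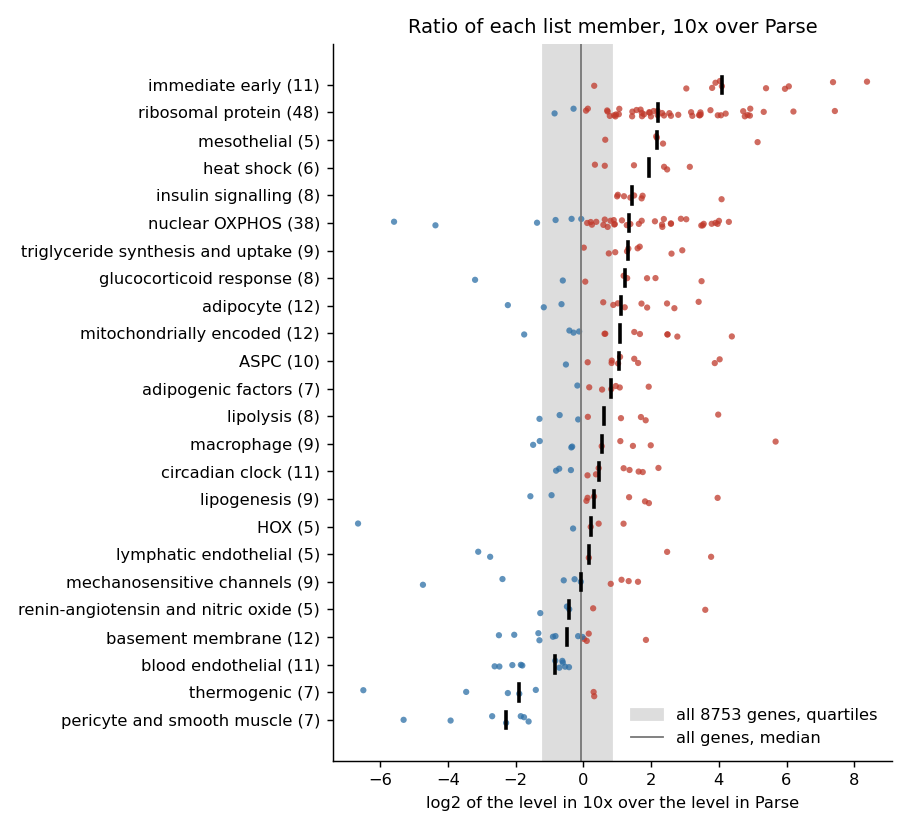
Log2 of the level on 10x over the level on Parse (horizontal axis) for each gene with at least 50 UMIs, in the lists with at least 5 such genes (vertical axis, number of genes in parentheses). Red points lie above 0 and blue points below, black bars are list medians, and the grey band and line are the quartiles and median of all 8753 genes. The immediate early median of 4.09 lies furthest to the right and the pericyte and smooth muscle median of -2.28 furthest to the left.

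The ratio followed the length of the gene. Spans on GRCr8 were found by symbol for 8619 genes (98.5%), with a median span of 47.0 kb. Among the 366 genes of up to 5 kb the median log2 ratio was 1.66, and 60.9% were at least 2-fold higher on 10x. The median fell through every bin, to 0.79, 0.11, -0.18 and -0.82, and was -1.94 among the 548 genes over 300 kb, of which 61.1% were at least 2-fold lower on 10x and 4.56% higher. The Spearman correlation of span and ratio was -0.43 across these genes. Relative to the median of all genes compared, the over-300-kb genes were at -1.87 against Parse mesPVAT and -2.60 against RP fat, but at -0.51 against taPVAT and -0.54 against BAT. The decline was thus larger against the white Parse libraries, which are also the shallower ones, than against taPVAT and BAT. Within Parse, the over-300-kb genes were at -1.46 in taPVAT over mesPVAT and at -0.42 in mesPVAT over RP fat. Each pair used its own genes of at least 50 UMIs.

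**Figure D3:**
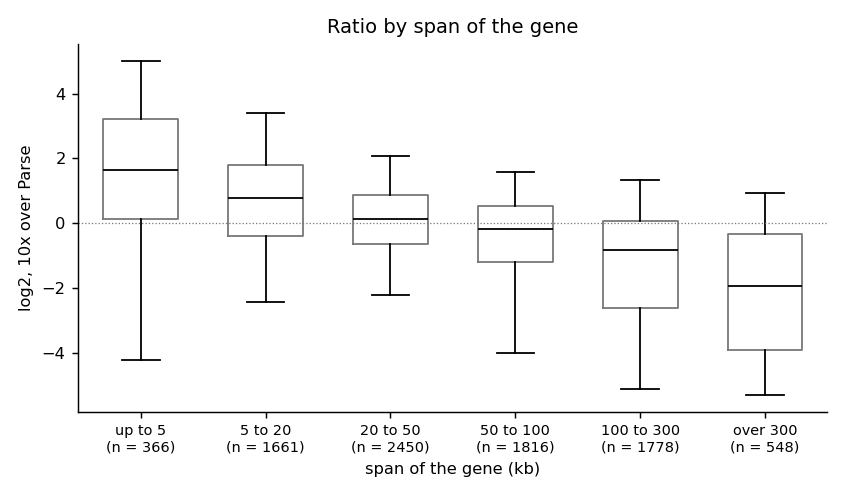
Log2 of the level on 10x over the level on Parse (vertical axis) by span of the gene on GRCr8 (horizontal axis, number of genes in parentheses). Boxes are quartiles with the median, whiskers the 5th and 95th percentiles, and genes with no UMI in a library are set at 3 UMIs. The median falls from 1.66 in genes of up to 5 kb to -1.94 in genes over 300 kb.

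Span and list were confounded in part. Ribosomal protein members had a median span of 3.03 kb, immediate early members 3.09 kb and OXPHOS members 9.68 kb. When each ratio was centred on the median of its span bin, the immediate early median was 3.79 and 10 of 11 members were still at least 2-fold higher, while Junb came to lie at least 2-fold lower. The ribosomal protein median was 0.60 with 20 of 48 members at least 2-fold higher and 3 lower, and the OXPHOS median 0.79. The pericyte and smooth muscle median was -2.54 and the mesothelial median 2.24. The T and NK median went from -2.85 to -0.91, with 1 of 3 members still at least 2-fold lower. The heat shock median went from 1.94 to 0.76, with 2 of 6 members higher and 1 lower. The lipolysis median went from 0.62 to -0.08 and the basement membrane median from -0.49 to 0.16. Other lists rose, such as lipogenesis from 0.32 to 1.04 and insulin signalling from 1.44 to 1.75. The part of span in any one difference was not tested beyond this centring.

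Genes at the other end were barely seen on 10x. Of the 15 named genes furthest below Parse, 14 had a known span, 6 spanned over 300 kb and 3 under 10 kb. Of the 15 furthest above, 11 spanned under 10 kb. Over all genes with a span, 6.36% lay over 300 kb and 10.5% under 10 kb. Of the 15 named genes furthest below Parse, 10 had no UMI in the 10x table, and over all 8753 genes 133 had none on 10x and 2 had none on Parse. A gene with no UMI on 10x met the minimum of UMIs over the pair through Parse alone, and the reverse held for Parse. The direction of these genes was therefore fixed by that minimum, and nothing is concluded from the 133 against the 2. Gphn, which encodes the scaffold protein gephyrin known from synapses, had 836 UMIs on Parse (655 CPM) and 0 on 10x. This was 239.6-fold lower at a floor of 3 UMIs, with an exact lower bound of 194-fold. Gphn was at 464 CPM in RP fat, 1707 CPM in taPVAT and 2423 CPM in BAT, so every rat Parse library held it. Whether the 10x annotation could count it was not tested. Adgrl2, an adhesion receptor, had 376 UMIs and Fzd1, a Wnt receptor, 328 UMIs on Parse, and both had 0 on 10x. At the same floor they were 107.8-fold and 94.0-fold lower on 10x, with exact lower bounds of 87.2-fold and 76.0-fold. An annotation limit is plain in 2 cases and was not tested for the other genes, Adgrl2 and Fzd1 among them. Gnaq, with 353 UMIs on Parse and 0 on 10x under the shared id, had 327 UMIs on 10x under another id of the same symbol, and Gpc6, with 594 UMIs on Parse and 4 on 10x, had 222 under its symbol. Gphn, Adgrl2 and Fzd1 have high-numbered ids like those of Gnaq and Gpc6 (ENSRNOG00000062503 to ENSRNOG00000065347). Mageb18 (ENSRNOG00000038230) and Sstr4 (ENSRNOG00000004641), also with 0 UMIs on 10x, do not. Of the genes with some UMIs on 10x, Lingo2 had 5 against 630 UMIs (108 times lower, 46.2 to 335), Nsd3 2 against 349, Ighm 3 against 408 and Grin2b 2 against 286. In RP fat Lingo2 was at 729 CPM, Ighm at 540 CPM and Grin2b at 410 CPM, each above its level in Parse mesPVAT, whereas Nsd3 was below it (159 against 273 CPM). Lingo2 and Grin2b are known as neuronal genes and Ighm encodes the heavy chain of IgM. In taPVAT Ighm was at 62.5 CPM and Grin2b at 28.9 CPM.

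Adipocyte markers were higher on 10x than in either white Parse library in sum, but not one by one. All 12 had UMIs in both libraries. The 12 markers reached 10891 CPM (10696 to 11088) on 10x, 5301 CPM (5176 to 5429) on Parse and 2073 CPM in RP fat. In the Parse libraries of taPVAT and BAT they reached 11186 and 12258 CPM, not below 10x. Of the 12, 7 were at least 2-fold higher and 2 at least 2-fold lower on 10x (58.3% and 16.7%, beside 22% and 28.3% of all genes). Lipe, the hormone-sensitive lipase, had 3459 UMIs on 10x and 624 on Parse (6.45 times, 5.92 to 7.03), and Adipoq, the adipokine adiponectin, had 1102 and 121 (10.6 times, 8.77 to 12.9). Dgat2, which completes triglyceride synthesis, was 5.55 times and Ghr, the growth hormone receptor, 3.69 times higher. The lipid droplet coats went the other way. Plin1 had 816 UMIs on 10x and 2133 on Parse (2.25 times lower, 2.07 to 2.44) and Plin4 had 225 and 1227 (4.69 times lower, 4.06 to 5.43). Plin4 was at 205 CPM on 10x and 961 CPM in Parse mesPVAT but 106 CPM in RP fat, so its direction against Parse turned with the library used. Among the white Parse libraries, Plin1 was lower on 10x against mesPVAT only. It was at 744 CPM on 10x, 1671 CPM in Parse mesPVAT and 667 CPM in RP fat, the first and last being close.

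The enzymes of fat storage and release showed the same mixture. Triglyceride synthesis and uptake genes summed to 9374 CPM on 10x and 3137 CPM on Parse (2.99 times, 2.88 to 3.10), with 6 of 9 members at least 2-fold higher and 0 lower. The sum was 10495 CPM in taPVAT and 12198.5 CPM in BAT. Fabp4, the adipocyte fatty acid binding protein, had 2671 and 410 UMIs, Pck1, which supplies glycerol 3-phosphate, 3016 and 1155, and Lpl, the capillary lipase, 1576 and 578. Gpam did not differ by 2-fold (156 and 154 CPM). Lipolysis genes were 2.47 times higher in sum, but nearly all of this rested on Pnpla2, which encodes the first lipase of triglyceride breakdown. Pnpla2 was 15.8 times higher (13.7 to 18.4). It held 2664 of the list's 4673 UMIs on 10x and 196 of its 2204 on Parse. The sum is thus not a rise of the list as a whole. The lipolysis sum was 4258 CPM on 10x, 1727 CPM on Parse, 4024 CPM in taPVAT and 3977 CPM in BAT. Mgll, the last lipase of the chain, had 438 UMIs on 10x and 1250 on Parse and was 2.45 times lower (2.20 to 2.74). Lipogenesis genes summed to 1383 CPM on 10x and 798 CPM on Parse, with Scd at 188 against 14 UMIs and Acacb at 57 against 196. Of 9 members, 4 were at least 2-fold higher and 1 at least 2-fold lower (44.4% and 11.1%, beside 22% and 28.3% of all genes).

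Insulin signalling genes were nearly uniform. They summed to 3583 CPM on 10x, 991 CPM on Parse and 966 CPM in RP fat (3.62 times, 3.39 to 3.86), and 7 of 8 members were at least 2-fold higher with 0 lower. In taPVAT and BAT the sum was nearer to 10x, at 3092 and 3251 CPM. Pik3r1, the regulatory subunit of phosphoinositide 3-kinase, had 1194 UMIs on 10x and 82 on Parse (16.9 times, 13.5 to 21.4). Tbc1d4, which controls movement of the glucose transporter, had 824 and 285 UMIs, and Irs1 and Irs2 were 2.30 and 2.03 times higher. The exception was Insr, the insulin receptor, just under the limit at 343 and 172 CPM (376 and 219 UMIs), and the limit of 2-fold lay between it and Irs2. Adipogenic factors summed to 6215 CPM on 10x and 3719 CPM on Parse, with 2 of 7 members at least 2-fold higher (28.6%, beside 22% of all genes) and 0 lower. Tcf7l2 was 3.81 times higher, whereas Ebf1 had 3538 and 2804 UMIs. Cebpb and Cebpd, whose ids differ between the libraries, lie outside this sum and count. Matched by symbol, Cebpb had 701 UMIs on 10x and 106 on Parse, and Cebpd 13 and 18. Circadian clock genes were 1.60 times higher in sum. Of 11 members, 5 were at least 2-fold higher (45.5%, beside 22% of all genes), among them Nr1d1 (4.65 times) and Bmal1 (3.37 times).

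Mesothelial genes were strongly higher on 10x. The list summed to 2774 CPM (2676 to 2874) on 10x, 540 CPM (500 to 582) on Parse and 396 CPM in RP fat, a ratio of 5.14 (4.73 to 5.59). Msln, the mesothelial surface protein mesothelin, had 700 UMIs on 10x and 23 on Parse (35.4 times, 23.4 to 56.2). Gpm6a had 1856 and 480 UMIs and Wt1, the mesothelial transcription factor, 347 and 79, 4.50 and 5.11 times higher. ASPC markers were 1.75 times higher in sum (1.67 to 1.84), with 6 of 10 at least 2-fold higher and 0 lower. Pi16 and Lum stood out at 418 against 33 UMIs and 56 against 4 UMIs, while Col3a1 had 983 and 1046 UMIs and Pdgfra, the general progenitor marker, was at 56.5 and 80.7 CPM. Macrophage markers were 1.79 times higher in sum, with C1qa at 308 against 7 UMIs (51.2 times, 24.5 to 128) and Mrc1 at 306 against 129, but Csf1r and Mertk were 2.79 and 2.44 times lower on 10x. Of 9 macrophage markers, 4 were at least 2-fold higher and 2 at least 2-fold lower (44.4% and 22.2%, beside 22% and 28.3% of all genes).

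Vascular genes lay on the other side. Pericyte and smooth muscle markers summed to 226 CPM (199 to 256) on 10x, 1619 CPM (1550 to 1690) on Parse and 1482 CPM in RP fat, 7.16 times lower on 10x (6.28 to 8.20). All 7 members compared were at least 2-fold lower on 10x. Myh11, the smooth muscle myosin, had 20 UMIs on 10x and 921 on Parse (39.6 times lower, 25.5 to 65.1), Pdgfrb 29 and 218, and Lmod1 5 and 88. Acta2, smooth muscle actin, was low in both, at 12 and 47 UMIs. Blood endothelial markers were 2.75 times lower in sum (2.57 to 2.95), with 5 of 11 members at least 2-fold lower and 0 higher. Mecom, an endothelial transcription factor, had 138 and 986 UMIs (6.14 times lower, 5.14 to 7.40), and Ptprb and Kdr, the receptor for VEGF, were 4.28 and 3.59 times lower. Pecam1, Cdh5, Emcn and Egfl7 were lower by less than 2-fold. Lymphatic markers were equal in sum (337 and 317 CPM) but split, since Prox1 was 5.56 times higher and Reln 6.74 times lower on 10x.

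The basement membrane list, which also holds Col5a3, summed to 6107 CPM on 10x, 13110 CPM on Parse and 4664 CPM in RP fat. Thus 10x lay below the one Parse library and above the other. The difference from Parse mesPVAT rested mainly on Col5a3, a fibrillar collagen chain. It was the highest shared gene on Parse with 9060 UMIs against 1384 on 10x (5.63 times lower, 5.32 to 5.96). Its level was 1261 CPM on 10x, 7099 CPM in Parse mesPVAT, 801 CPM in RP fat and 315 CPM in taPVAT, so 10x lay above RP fat. Of the 12 members, 4 were at least 2-fold lower (33.3%, beside 28.3% of all genes) and 1, Lamc1, at least 2-fold higher (1313 against 424 UMIs, interval of the ratio 3.23 to 4.03). Among genes of vascular tone, Agt, which encodes angiotensinogen, had 511 and 49 UMIs (12.1 times higher, 9.04 to 16.6) and Nos3, the endothelial nitric oxide synthase, 68 and 191 UMIs (2.42 times lower, 1.82 to 3.23). The renin-angiotensin and nitric oxide list was equal in sum, at 1436 and 1433 CPM. Of 9 mechanosensitive channels, 3 were at least 2-fold higher and 2 lower (33.3% and 22.2%, beside 22% and 28.3% of all genes). Piezo1 was 2.53 times higher (985 against 453 UMIs) and Piezo2 5.23 times lower (46 against 280 UMIs) on 10x.

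Thermogenic genes were lower on 10x, with 235 CPM (207 to 266) against 867 CPM (817 to 920) on Parse and 1257 CPM in RP fat. Of 7 members, 5 were at least 2-fold lower and 0 higher. Ucp1, the uncoupling protein of brown fat, had 1 UMI on 10x and 105 on Parse (90.3 times lower, 15.9 to 3599), and was at 82.3 CPM on Parse, 126 CPM in RP fat and 2192 CPM in taPVAT, which was barcoded with the same kit in the same batch. Ppargc1a had 24 and 307 UMIs (11.0 times lower, 7.25 to 17.4) and Esrrg 75 and 409. Hoxa9, a gene of posterior body position, had 1 UMI on 10x and 117 on Parse (101 times lower, 17.7 to 4007), where RP fat was at 9.91 CPM, while Hoxa3 had 233 and 119 UMIs and was 2.28 times higher. Of 5 HOX genes compared, 1 was at least 2-fold higher and 1 lower, near the shares over all genes.

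Markers of cells that fat holds in small numbers, or that belong to neighbouring organs, were mostly lower on 10x. T and NK genes were at 74.7 CPM on 10x, 375 CPM on Parse and 662 CPM in RP fat. The 3 members compared were long genes, with a median span of 233 kb. B lineage genes were at 44.7, 277 and 406 CPM, with Pax5 at 0 UMIs on 10x and 121 on Parse. Mast cell genes were at 91.1, 210 and 256 CPM, and the mast cell list split between Hpgds (2 against 147 UMIs) and Gata2 (71 against 34). Striated muscle genes were at 124, 517 and 542 CPM, with Neb at 1 and 189 UMIs. The members compared of the B lineage, striated muscle and Schwann cell lists were also long, with median spans of 228, 198 and 103 kb. Centred on span, their median log2 ratios went from -3.45 to -2.64, from -3.82 to -3.00 and from -1.91 to -1.09. Mast cell members had a median span of 29.5 kb. Pancreatic acinar and intestinal epithelial genes were at 3.65 CPM each on 10x and at 61.1 and 65.0 CPM on Parse, where no single member reached 50 UMIs. Each of these 10x sums rested on 4 UMIs. Cela1 and Amy2a3 of the acinar list, whose ids differ between the libraries, lie outside its sum. Matched by symbol, Cela1 had 14 UMIs on 10x and 9 on Parse, and Amy2a3 0 and 2. The log2 ratio of the acinar sum was -4.07 and ranged from -4.33 to -2.09 under other settings. Neutrophil genes had 0 UMIs on 10x, with an exact upper bound of 3.36 CPM (the floor of 3 UMIs is 2.73 CPM), and 26 UMIs on Parse. Erythroid genes were at 52.9 CPM on 10x, 26.6 CPM on Parse and 56.2 CPM in RP fat, Schwann cell genes at 169 and 262 CPM, and replication histone genes at 93.0 and 121 CPM. Of the 7 nuclear long non-coding RNAs looked for, 0 could be joined by id. The part of free RNA or of spread of UMIs between barcodes in these levels was not tested.

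**Figure D4:**
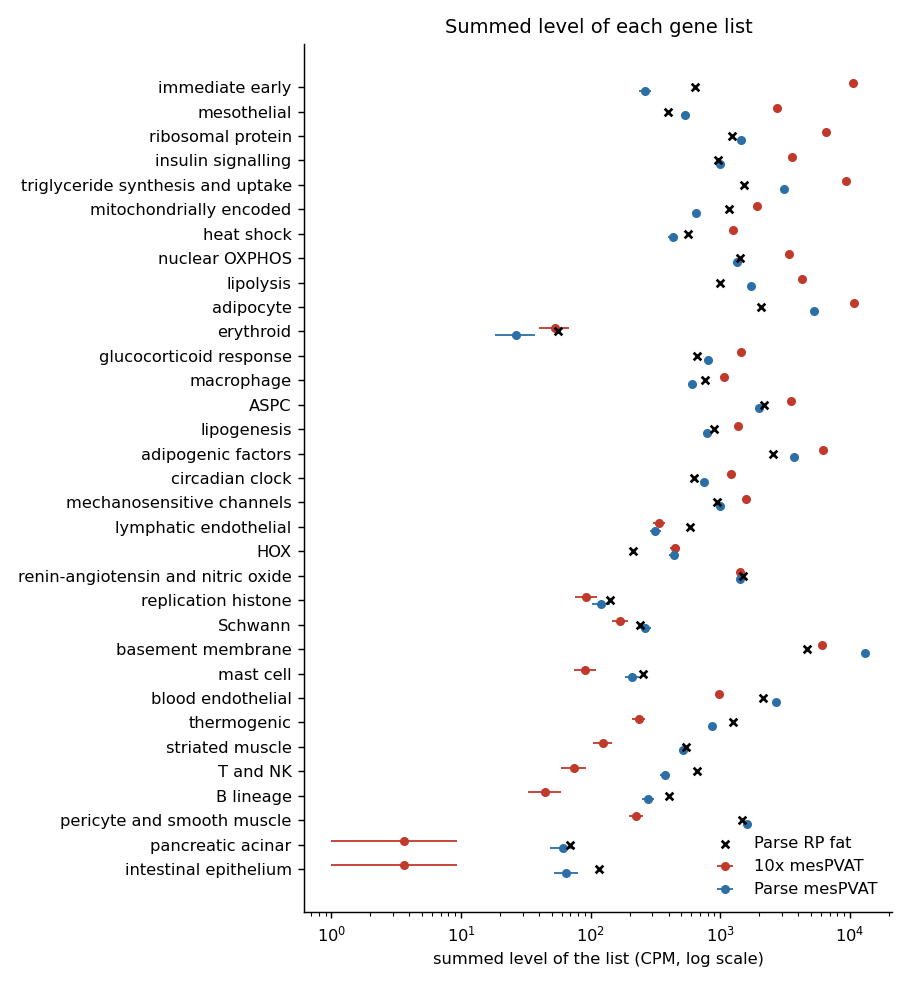
Summed level of each gene list in CPM of the shared ids (horizontal axis, log scale), for the 10x library (red), the Parse library labelled mesPVAT (blue) and the Parse library labelled RP fat (black crosses), with lists that had at least 50 UMIs in the pair. Bars are exact Poisson intervals for the first 2 libraries, and lists are ordered by the ratio of 10x over Parse, from immediate early genes (10566 against 265 CPM) to intestinal epithelium (3.65 against 65.0 CPM).

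Sums over a library cannot tell more nuclei of a type from more RNA in each, and single nuclei were also classed. A class rests on marker UMIs, so its share also rises with marker RNA per nucleus and cannot separate the 2 readings. The thinned UMIs were drawn over all ids, and ids outside the shared ones carried 11.3% of UMIs on 10x and 23.0% on Parse. Thinning left out 2649 of the 10x nuclei and 0 of the Parse nuclei. Each nucleus was thinned to 150 UMIs and given the marker list that led in UMIs, where the lead was not shared and rested on 2 UMIs or more. These classes follow from the same marker UMIs as the sums and are not independent of them. On 10x 1268 of 3238 nuclei were of the adipocyte class (39.2%, 37.5 to 40.9), against 340 of 3028 on Parse (11.2%, 10.1 to 12.4) and 3.54% in RP fat. The mesothelial class held 6.24% of nuclei on 10x (5.43 to 7.13) and 0.991% on Parse (0.669 to 1.41). The ASPC class held 7.20% and 3.93%, but at 300 UMIs per nucleus it held 7.01% (5.47 to 8.82) on 10x and 7.596% (6.403 to 8.933) on Parse, so its order turned with the depth. The macrophage class held 2.35% and 0.528%. The blood endothelial class was smaller on 10x, at 2.16% (1.69 to 2.72) against 4.69% (3.96 to 5.50), and so was the pericyte and smooth muscle class, at 0.309% against 2.48%. No class could be given to 41.7% of the 10x nuclei and 75.2% of the Parse nuclei. The share with 2 UMIs or more of 2 different lists was 3.77% on 10x and 1.02% on Parse, and doublets were not called. In full depth, the adipocyte-class nuclei had medians of 240.5 UMIs on 10x and 485.5 on Parse.

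**Figure D5:**
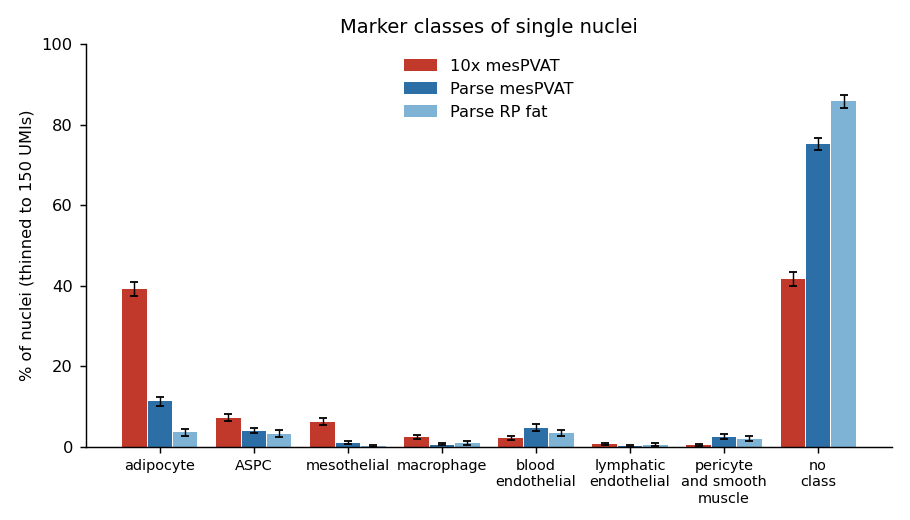
Percentage of nuclei (vertical axis) in each marker class after thinning to 150 UMIs, for 10x (red, 3238 nuclei), Parse mesPVAT (blue, 3028 nuclei) and Parse RP fat (light blue, 1951 nuclei), with exact binomial intervals. The adipocyte class held 39.2% of 10x nuclei against 11.2% and 3.54%, and nuclei without a class made up 41.7%, 75.2% and 85.8%.

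Within nuclei of one class the immediate early difference was seen again. The list was at 10468 CPM in adipocyte-class nuclei on 10x and 193 CPM on Parse (54.3 times, 38.8 to 78.6). It was at 10836 and 348 CPM in the mesothelial class, where Parse had 3 UMIs in 30 nuclei, at 10757 and 401 CPM in the ASPC class (26.8 times, 17.1 to 44.9) and at 8632 and 447 CPM in the blood endothelial class (19.3 times, 13.3 to 28.8). In the macrophage class the list was at 9877 CPM on 10x, and in the 22 nuclei of the lymphatic class at 6515 CPM (4752 to 8718), the lowest of the 6 classes with at least 20 nuclei on 10x. Free RNA in the suspension and expression in every class cannot be told apart by these values. Ribosomal protein genes were 4.11 times higher in the adipocyte class (3.57 to 4.76), 4.53 times in the ASPC class and 2.15 times in the endothelial class.

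Several pathway lists had the same direction within adipocyte-class nuclei as in the whole libraries. Lipolysis genes were at 7013 CPM on 10x and 2403 CPM on Parse (2.92 times, 2.63 to 3.25). Pnpla2 carried nearly all of the lipolysis difference over the whole libraries, and its part within the class was not measured. Insulin signalling genes were at 5433 and 1541 CPM (3.52 times, 3.10 to 4.02). Triglyceride synthesis and uptake genes were at 14532 and 7570 CPM (1.92 times, 1.81 to 2.04). The basement membrane list, which also holds the fibrillar collagen gene Col5a3, was at 7607 and 26502 CPM (3.48 times lower, 3.32 to 3.66). The part of Col5a3 in this difference was not measured within the class. In blood endothelial-class nuclei, triglyceride synthesis and uptake genes were at 3626 CPM on 10x and 1497 CPM on Parse. The list includes Fabp4 and Lpl, and background RNA was not told apart from expression in this class. Lipolysis genes there were at 1073 CPM on 10x and at 3007 CPM on Parse, so on Parse the level in this class was not below that in the adipocyte class. The median depths of that class were 244 UMIs on 10x and 426.5 on Parse.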

How the data were processed

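The authors deposited UMI counts per gene and nucleus without normalization, from Cell Ranger 7.1.0 for 10x (named in the file header) and from split-pipe on GRCr8 for Parse. The supplementary methods name Rnor_6.0 for 10x, which the file does not state. The study's later limits on nuclei were not applied to these files and were tried as an alternative. The files were read with Python 3.11.15, numpy 2.4.6, scipy 1.17.1 and pandas 2.3.3, and drawn with matplotlib 3.10.9. UMIs were summed per gene over all nuclei, joined by Ensembl id and scaled to CPM. Genes were named by the Parse symbol. Genes with at least 50 UMIs in the pair were compared by their ratio with a conditional exact binomial interval. Sums have exact Poisson intervals, shares exact binomial intervals and medians order-statistic intervals, at 95%. PCR duplicates were removed by UMI upstream. A gene with 0 UMIs was set at 3. Named are, per list, up to 4 members with the most UMIs and any member 4-fold apart, the 15 genes furthest each way by the nearer interval bound, and the 10 highest genes; other members are named as exceptions, chosen after their values were seen. Some genes that the rule names are not reported here. Members and lists were chosen with earlier results of these data known. The mitochondrial list was corrected once to take in Mt-cyb. Steps were tested on simulated counts.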

Additional observations from a re-analysis of the deposited data

Results flagged for a closer look

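A part of each library lies outside the comparison, since gene ids listed by only 1 of the tables cannot be joined. These ids carried 11.3% of the 10x UMIs and 23.0% of the Parse UMIs. On 10x the 5 highest held 8.51% of all UMIs, led by ENSRNOG00000065867 with 38419 UMIs (3.10%) and ENSRNOG00000062930 with 29123 UMIs. On Parse ENSRNOG00000087169 alone held 88277 UMIs (5.33%) and ENSRNOG00000089373 held 15209. What these ids encode was not analysed here. Of the unshared UMIs, ids whose symbol occurs in the other table under another id held 12587 on 10x and 11642 on Parse.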

How the results depend on the processing

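No paired analysis was possible because each condition had 1 library and the labels give no replicate numbers. For the same reason no library could be left out. Genes at least 2-fold higher and lower on 10x numbered 1923 and 2480. At a minimum of 200 UMIs they were 771 and 648 and at 4-fold 739 and 1449, fewer by construction. A minimum of 20 UMIs gave 4491 lower genes. Parse sublibrary 1 alone gave 1633 lower genes and sublibrary 2 alone 1488, each with fewer genes compared, and the share of calls that were higher rose from 43.7% to 53.5% and 54.7%. It was 54.3% at 200 UMIs and 53.8% against RP fat. Scaling, equal weight of nuclei, the study's limits on nuclei, nuclei of at least 300 UMIs, the join by symbol and centring on span (added after seeing the data) kept both counts within 1.5 times. The median of UMIs and genes per nucleus was 176 and 151 on 10x under the study's limits. It was 394 and 324.5 on 10x, and 541 and 454 on Parse, in nuclei of at least 300 UMIs. Parse sublibrary 1 had 320 UMIs and 285 genes, sublibrary 2 376.5 and 325.5, and RP fat 213 and 197. Of 20 summed list levels at least 2-fold apart, 1 changed sign, basement membrane, whose log2 ratio turned from -1.10 to 0.39 against RP fat. Of 13 under 2-fold, 5 changed sign under some setting (HOX, erythroid, lymphatic, renin-angiotensin and replication histone), among them erythroid from 0.99 to -0.87 when joined by symbol. Of 13 list medians at least 2-fold apart, the mitochondrially encoded turned from 1.08 to -0.10 against RP fat. Of 11 under 2-fold, 6 changed sign, which were HOX, basement membrane, lipolysis, lymphatic (0.16 to -2.60 under the study's limits), mechanosensitive and renin-angiotensin. The immediate early sum ranged from 4.05 to 5.46 (log2) and the lipolysis sum from 0.23 to 2.08. The 0.23 was found with mitochondrial genes and the top 20 genes left out of the CPM. Of 42 class shares under other thinning, minimum or library, 40 moved beyond their interval, and of 6 classes the order of 10x and Parse turned in 1, ASPC at 300 UMIs. Causes were not tested. Depth limits genes under 50 UMIs and the smaller classes.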
